A study of Rattus norvegicus with 2 samples.

Results

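This account covers 5 rat genes that act on unsaturated fatty acids or in the peroxisome: Ech1, Eci1, Decr1, Pxmp2 and Ehhadh. They are read by the 9 probe sets that the platform annotation assigns to these symbols, out of 8740 non-control probe sets on the array, and no probe set with several symbols names any of them. The genes were picked with these data in view, so the difference between the diets in the members is a description and carries no test. Total RNA from hearts of male Dahl salt-sensitive (DS) rats, an inbred strain that becomes hypertensive on salt, was hybridised to 1-colour oligonucleotide arrays; the rats were 17 weeks old. The high-salt group was fed a high-salt diet and is labelled as a rat with chronic heart failure, and it has 1 array. The low-salt group was fed a low-salt diet, carries no label for heart failure, and also has 1 array. Both groups share the strain, the sex and the age, and the labels name neither the number of animals behind an RNA nor the heart chamber. The comparison addresses which transcripts differ in level between the high-salt and the low-salt heart. Diet and the label of heart failure change together, with 1 array per group. Diet, heart failure and differences between single RNAs therefore cannot be told apart.

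The heart takes much of its energy from long-chain fatty acids, which mitochondria shorten in repeated rounds of beta-oxidation. The standard round handles saturated chains, and the double bonds of unsaturated chains need auxiliary enzymes: enoyl-CoA isomerase (Eci1) moves a double bond into the place the hydratase can use, dienoyl-CoA reductase (Decr1) removes a double bond with NADPH, and dienoyl-CoA isomerase (Ech1) shifts a pair of conjugated double bonds. Peroxisomes carry their own beta-oxidation for very long and branched chains, in which Ehhadh is a bifunctional hydratase and dehydrogenase, and Pxmp2 is a membrane protein that lets small metabolites pass. Several of these genes are known targets of the fatty acid receptor PPAR-alpha.

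RefSeq promoter sequences (build GRCr8, 250 bases before to 50 bases after the annotated start) were matched for 3 of the 5 genes, Eci1, Pxmp2 and Ehhadh. The promoters of Eci1 and Pxmp2 are printed because both genes read lower on the high-salt array. The Eci1 window lies at chr10:13961000-13961299 on the plus strand and the Pxmp2 window at chr12:52053701-52054000 on the plus strand. Capitals mark matches, on either strand, to a nuclear receptor half-site, a GC box or a CCAAT box.
Eci1 promoter: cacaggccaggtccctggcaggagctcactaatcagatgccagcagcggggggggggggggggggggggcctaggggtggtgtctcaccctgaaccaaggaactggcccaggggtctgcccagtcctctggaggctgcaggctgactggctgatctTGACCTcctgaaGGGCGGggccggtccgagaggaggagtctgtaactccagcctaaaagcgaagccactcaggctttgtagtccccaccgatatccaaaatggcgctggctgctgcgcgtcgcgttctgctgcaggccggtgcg
Pxmp2 promoter: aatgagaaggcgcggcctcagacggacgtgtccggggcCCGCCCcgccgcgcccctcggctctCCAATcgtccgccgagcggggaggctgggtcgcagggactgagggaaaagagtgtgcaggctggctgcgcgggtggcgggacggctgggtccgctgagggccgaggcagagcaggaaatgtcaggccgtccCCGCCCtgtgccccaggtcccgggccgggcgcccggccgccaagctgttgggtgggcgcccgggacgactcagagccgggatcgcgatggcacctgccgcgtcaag
The motifs searched on both strands were AGGTCA (the half-site), the PPAR direct repeat (AGGTCA, any 1 base, AGGTCA, which contains the half-site), GGGCGG (the GC box) and CCAAT. The direct repeat matched none of the 3 windows and 0.0538% of all 33469 promoters in the table. A half-site on the minus strand of Eci1 begins 94 bases before the start, and 16.2% of all promoters hold a half-site. GC boxes, held by 33.1% of all promoters, begin 82 bases before the start in Eci1, 212 and 56 in Pxmp2, and 40 in Ehhadh. CCAAT, held by 37.5%, begins 187 bases before the start in Pxmp2 and 71 in Ehhadh. The GC content was 65.3% for Eci1, 74.0% for Pxmp2 and 60.7% for Ehhadh, beside a median of 51.7% over all promoters. These matches describe letters in the windows and say nothing of binding.

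The deposited intensities are linear, with 2% trimmed means of 100.2 on both arrays, and 27.3% of the high-salt and 27.4% of the low-salt values lay below 0. Means this equal can come from scaling before deposit, so they do not show by themselves that the arrays are comparable. Detection calls were not used here, so a noise floor of 126.4 was used, below which 95% of the values under 0 lay when taken without their sign; 20.0% of the non-control probe sets on the high-salt array and 20.3% of those on the low-salt array reached it. A probe set is called measured where it reached the floor on at least 1 array, and any lower value was replaced by the floor when the log2 ratio, high salt over low salt, was computed. With 1 array per diet there is no spread between replicates, so every difference compares these 2 arrays, and their number limits the precision. The only measure of error within the pair was the spread of log2 ratios among probe sets of 1 gene, an SD of 0.22 over 231 genes with several probe sets above the floor on both arrays, which holds no variation between animals. That SD includes probe sets named from 1 accession, such as those of Decr1, which are not independent.

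**Figure D1:**
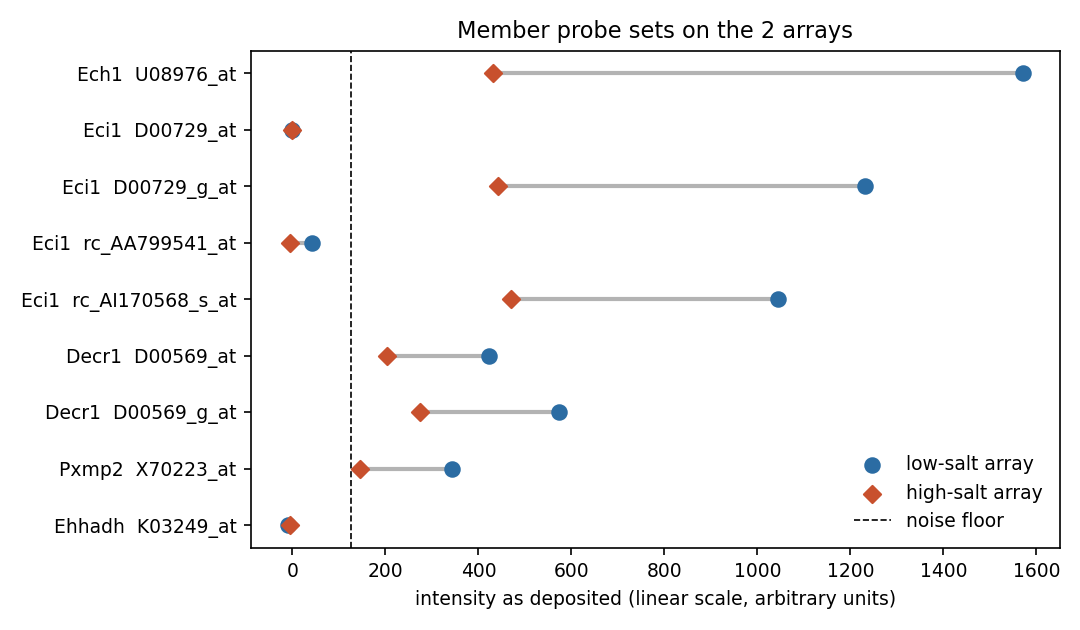
Intensity as deposited (x axis, linear, arbitrary units) of each of the 9 member probe sets (y axis) on the low-salt array (blue circles) and the high-salt array (orange diamonds), joined by a grey line, with the noise floor of 126.4 dashed; there is 1 array per diet and no error bar. In 6 probe sets both values lie right of the floor with the high-salt value to the left, from 146.3 against 343.4 for Pxmp2 to 430.9 against 1571.3 for Ech1, and in 3 probe sets both values lie left of it.

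Of the 5 genes, 4 (Ech1, Eci1, Decr1 and Pxmp2) read lower in the high-salt heart, by 2.08-fold to 3.65-fold, and the last, Ehhadh, lay under the noise floor on both arrays. Of the 9 member probe sets, 6 reached the floor, all of them on both arrays, and 3 reached it on neither. All 6 were at least 2-fold lower and 0 were at least 2-fold higher, while over all 1955 measured probe sets 1.69% were at least 2-fold lower and 3.53% at least 2-fold higher. The members were chosen on this contrast, so nothing is read from that count.

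The isomerases are described first. Ech1, the dienoyl-CoA isomerase, which is found in both mitochondria and peroxisomes, has a single probe set, U08976_at. It read 430.9 on the high-salt array and 1571.3 on the low-salt array, a log2 ratio of -1.87. The high-salt intensity was 27.4% of the low-salt intensity, and both were well clear of the noise floor.

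Eci1, the mitochondrial enoyl-CoA isomerase, has 4 probe sets, and they did not all read the transcript. D00729_g_at read 442.7 on the high-salt and 1232.2 on the low-salt array, a 2.78-fold lower level and a log2 ratio of -1.48. A probe set made from another sequence of the gene, rc_AI170568_s_at, read 469.6 against 1044.9, which is 2.23-fold lower with a log2 ratio of -1.15. Both therefore gave the same direction, and their log2 ratios lay 0.32 apart. The SD of 0.22 for probe sets of 1 gene is that of single probe sets, and a gap between a pair varies more. The name ending of rc_AI170568_s_at is one given to probe sets that can match related transcripts, so its reading may not belong to Eci1 alone. Whether D00729_g_at reads Eci1 alone was not tested either. The other two lay under the floor and give no ratio: D00729_at, named from the same accession as D00729_g_at, read -1.8 on both arrays, and rc_AA799541_at read -5.7 against 42.3.

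Decr1, the mitochondrial dienoyl-CoA reductase, has a pair of probe sets, both named from 1 accession and so not independent. D00569_g_at read 274.6 on the high-salt and 574.2 on the low-salt array, a log2 ratio of -1.06. D00569_at read 203.2 against 422.3, also a log2 ratio of -1.06. The probe sets lay 0.0089 apart on the log2 ratio scale, and each put the high-salt heart about 2-fold lower (2.09-fold and 2.08-fold). Being this close to the threshold, D00569_at passed it no longer under loess scaling (log2 ratio -0.98) or with the floor at 271.2, which 99% of the unsigned values under 0 do not reach (-0.64).

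Besides Ech1, the peroxisomal members divided into 1 measured and 1 unmeasured gene. Pxmp2, the peroxisomal membrane channel, read 146.3 on the high-salt and 343.4 on the low-salt array in its single probe set X70223_at, a 2.35-fold lower level with a log2 ratio of -1.23. Its high-salt reading was the closest to the noise floor among the measured members, so the size of its ratio is the least certain: with the floor at 271.2, its log2 ratio is a bound of -0.34. Ehhadh, the bifunctional enzyme, read -4.7 and -9.7 in K03249_at, and at this noise level no difference between the diets was detectable for it.

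**Figure D2:**
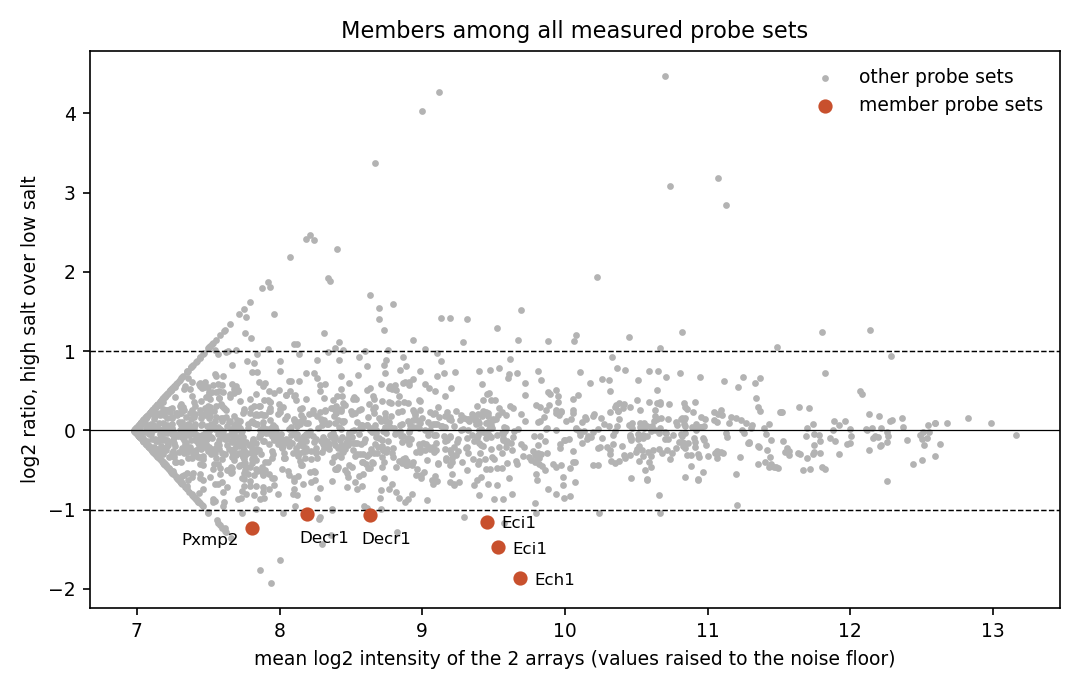
Log2 ratio, high-salt over low-salt array (y axis), against the mean log2 intensity of both arrays with values raised to the noise floor (x axis) for the 1955 measured probe sets, members in orange and all others in grey; dashed lines mark 2-fold and the slanting edges at the left are probe sets with 1 value at the floor. The 6 member probe sets lie between log2 ratios of -1.87 and -1.06, below the lower dashed line.

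Of 958 genes whose brightest probe set was above the noise floor on both arrays, Ech1 had the lowest ratio, Eci1 was at place 2, Pxmp2 at 4 and Decr1 at 9. Genes with a high-salt value under the floor are not ranked, and some measured probe sets of that kind fell at least as far. AB000507_at had a bound of -1.92, below Ech1 at -1.87, and rc_AA925473_at had a bound of -1.76, below Eci1 at -1.48. The places are those of genes selected for low ratios, and they depend on where the floor is set. With the floor at 10.9, the 40th percentile of all values, many dimmer genes enter, and the places become 21, 42, 79 and 112. Counted by probe set at the main floor, 1561 were above it on both arrays. There Ech1 was at place 1, the Eci1 probe sets at 3 and 10, Pxmp2 at 8 and the Decr1 probe sets at 15 and 16. Among these 958 genes, the nearest to Ech1 by the difference in log2 ratio, over 2 arrays, were Eci1 (0.39 apart), Tuba4a (0.58), Pxmp2 (0.64), Cd74 (0.69) and Rxrg (0.75). For Eci1 they were Tuba4a (0.19), Pxmp2 (0.25), Cd74 (0.30), Rxrg (0.36) and Acadvl (0.39). Tuba4a encodes an alpha-tubulin and read 289.8 against 707.6, and Cd74, a chaperone of MHC class II molecules, read 507.3 against 1144.4. A likeness over 2 arrays is a single difference and does not set these genes apart from others with low ratios.

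The nearest biochemical relatives were measured on the same arrays. Across all 1216 measured genes, the median log2 ratio was -0.04, the ratio was below 1 in 54.5%, and 1.89% were at least 2-fold lower and 3.54% at least 2-fold higher. The list for oxidation of unsaturated chains holds the 3 auxiliary enzymes above with Decr2 and Eci2 (formerly Peci), and of the latter pair Decr2, the peroxisomal dienoyl-CoA reductase, had a named probe set on the array. Decr2 read 29.3 against 42.8 in its brighter probe set, under the noise floor, so the mitochondrial and peroxisomal reductases cannot be set side by side.

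Peroxisomal oxidation beyond the members showed values in both directions. Besides the members, 12 listed genes were on the array, 8 of these were under the floor on both arrays, and 4 were measured, with a median log2 ratio of -0.41. Of the 4, 1 was at least 2-fold lower and 0 were at least 2-fold higher. That gene was Abcd3, the peroxisomal transporter that carries fatty acyl-CoA across the membrane, at 233.8 against 468.0, barely past the 2-fold threshold, which it did not pass under median or loess scaling or with the floor at 271.2. Acsl1, a long-chain acyl-CoA synthetase found on several membranes, read 350.3 against 559.2, a log2 ratio of -0.67, and its other probe sets above the floor on an array gave -0.94 and -0.96. Hsd17b4, the other bifunctional enzyme of peroxisomal oxidation, read 251.4 against 278.1, a log2 ratio of -0.15. Scp2, whose products are a peroxisomal thiolase and a sterol carrier protein, read higher at 467.5 against 327.4, a log2 ratio of 0.51, with 0.26 in its second probe set. Acox2, Acox3, Acaa1b, Hacl1, Amacr, Crot and Slc27a2 gave no ratio, as did Decr2.

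Peroxisome membrane, biogenesis and antioxidant genes were closer to the arrays' median. Besides Pxmp2, 17 listed genes were on the array and 6 were measured; 0 of the 6 were 2-fold lower, 0 were 2-fold higher, and 5 lay below a ratio of 1, with a median log2 ratio of -0.21. Catalase (Cat), which breaks down the hydrogen peroxide made by peroxisomal oxidases, read 418.9 against 565.1, a log2 ratio of -0.43, and -0.71 in another probe set. Fis1, a fission factor of mitochondria and peroxisomes, read 306.6 against 388.1. Gnpat, an enzyme of ether lipid synthesis, read 134.7 against 177.4. Pex11a, which promotes peroxisome division, read 208.2 against 220.5, and Idh1, an NADP-dependent isocitrate dehydrogenase, read 218.4 against 191.9. Agxt, a peroxisomal aminotransferase, read 56.1 against 132.0, just above the floor on the low-salt array. Pxmp2 at -1.23 was thus lower than Cat, Fis1, Gnpat, Pex11a and Idh1, which ran from -0.43 to 0.19. For Agxt the log2 ratio of -0.06 is only a bound, because its high-salt value was under the floor. Agxt therefore cannot be placed above or below Pxmp2, and the list median counts it at that bound.

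Genes that import fatty acids into mitochondria or run the oxidation cycle, none of them a member, all had a ratio below 1: 15 of 15 measured, from 18 on the array, with 4 at least 2-fold lower, 0 at least 2-fold higher and a median log2 ratio of -0.81. The 4 were Acadvl, the very long-chain acyl-CoA dehydrogenase (214.2 against 455.2), Cpt2, which rebuilds acyl-CoA inside the mitochondrion (431.1 against 915.3), Acaa2, the thiolase of the cycle (1132.2 against 2322.1), and Slc25a20, the carnitine carrier (122.7 against 259.0, at least 2.05-fold). Acadl, the long-chain dehydrogenase, read 2399.3 against 3231.2, and Cpt1b, the muscle carnitine palmitoyltransferase, read 1152.8 against 1410.7. With each gene in its brightest probe set, the lowest log2 ratio in this list was -1.09. Ech1 was at -1.87, Eci1 at -1.48 and -1.15 in its measured probe sets, and Pxmp2 at -1.23, while Decr1, at -1.06, lay within the list's range. Some values of the list are bounds and can lie lower: Slc25a20 at -1.03, and further probe sets of Acat1 (101.4 against 235.5, a bound of -0.90) and Etfdh (72.3 against 176.3, a bound of -0.48). This list was written with earlier results of these data known, so its direction is not independent evidence, and no test of the difference between the lists was possible with 1 array per diet.

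**Figure D3:**
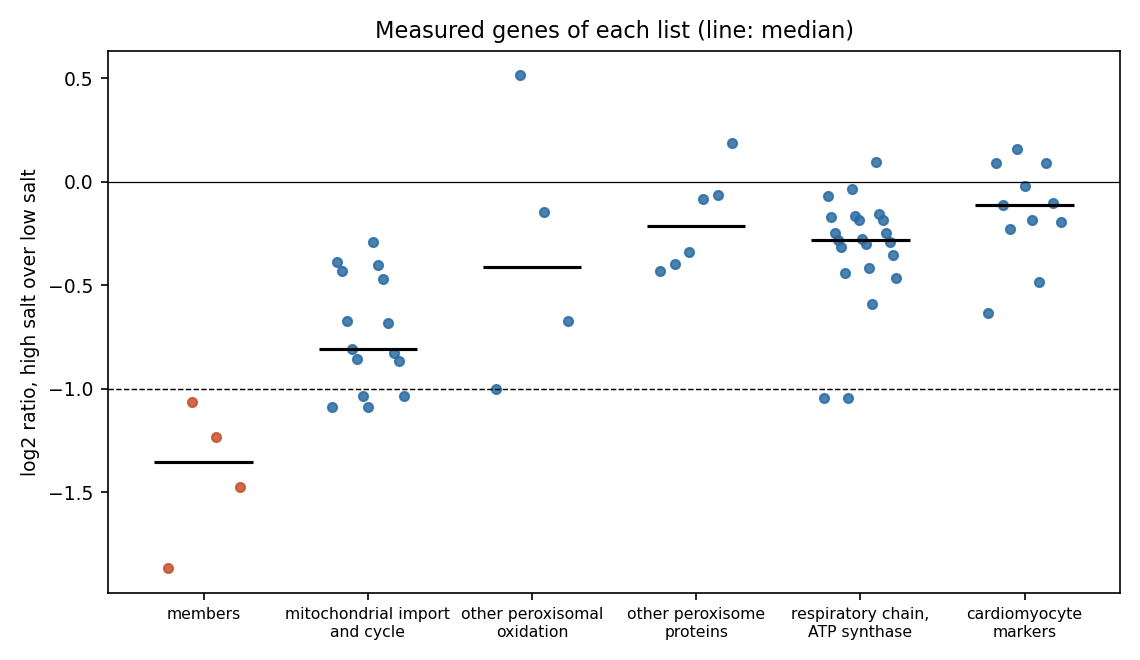
Log2 ratio, high-salt over low-salt array (y axis), of each measured gene, 1 point per gene in its brightest probe set, for the members and for 5 lists without the members (x axis); black bars are medians, the dashed line marks 2-fold lower, and Slc25a20, Agxt and Ndufs1 are bounds because their high-salt value was under the noise floor. The 4 measured members lie between -1.87 and -1.06, while the list medians are -0.81 for mitochondrial import and cycle, -0.41 and -0.21 for the other peroxisomal lists, -0.28 for the respiratory chain and -0.11 for cardiomyocyte markers.

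Respiratory chain and ATP synthase genes, which share the mitochondrion with Eci1, Decr1 and Ech1, showed smaller differences. Their median log2 ratio was -0.28; 21 of 22 measured genes lay below a ratio of 1, 2 were at least 2-fold lower and 0 at least 2-fold higher. The 2 were the complex I subunits Ndufb10 (620.4 against 1280.3) and Ndufs7 (840.7 against 1734.2). The genes of this list with the highest intensities stayed close to equal, with Cox6a2 at 6762.4 against 6338.8, Atp5f1b at 4808.9 against 5042.3 and Cox4i1 at 4457.8 against 5070.7.

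The receptors that are known to control these genes were mostly too dim to read. Of 10 listed PPAR, RXR and related regulators on the array, 1 was measured: Rxrg, a retinoid X receptor that pairs with PPARs, read 210.9 against 458.0, a 2.17-fold lower level. Its other probe sets, AF016387_at (13.0 against 111.4) and AJ223083_at (-20.2 against 4.7), were under the floor. Ppara itself read 36.5 against 41.8, Ppard 54.7 against 114.4 and Pparg 21.3 against 11.4, all under the floor, so no direction can be given for them.

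Markers of the cells in the tissue were read in the same way. Cardiomyocyte markers marked both arrays as heart muscle: 11 of 12 on the array were measured, 0 were 2-fold lower or higher in their brightest probe set, their median log2 ratio was -0.11, and their summed intensity was 57007.3 on the high-salt and 61228.7 on the low-salt array. Tnnt2, cardiac troponin T, read 5576.1 against 6017.5 and Actc1, cardiac actin, 8364.9 against 7848.9, whereas Fabp3, a cytosolic carrier of fatty acids, read 3932.1 against 6103.4 (log2 ratio -0.63) and Ckm, muscle creatine kinase, 3062.3 against 4279.7 (-0.48). The second probe set of the myosin heavy chain gene Myh7 was 2.08-fold higher, at 4125.1 against 1988.0, while those of Myh6 ran from -0.94 to -0.10. In bulk tissue, fewer cells of a type and less RNA per cell cannot be told apart. Red cell markers were higher on the high-salt array, with 3 of 3 at least 2-fold higher in their brightest probe set and a summed intensity of 7944.9 against 3134.8. Hbb, a beta-globin, read 6982.3 against 2910.5, and Alas2, an enzyme of haem synthesis, 698.0 against 104.5. For the anion exchanger Slc4a1 the brightest probe set read 264.6 against 119.8, but another read 168.3 against 174.8. Fibroblast markers had 1 of 8 at least 2-fold higher (S100a4, 461.8 against 99.8) and 0 lower, summing to 5247.3 against 3829.6. Their median log2 ratio was 0.55, with 6 above a ratio of 1 and 2 below it. Postn (167.3 against 5.0) and Fn1 (230.0 against 73.2) were among the 6, as bounds, because their low-salt values were under the floor. Leukocyte markers had 1 of 3 at least 2-fold higher (Lyz2, 458.6 against 130.4) and 1 at least 2-fold lower (Cd74), summing to 1278.2 against 1466.2. The part of these in the members' ratios was not tested.

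Markers of other tissues were mixed. All 5 kidney tubule markers were under the noise floor on both arrays, as were the hepatocyte markers Alb (42.3 against 51.6) and Apoa1 (42.5 against 51.9), and the 8 hepatocyte markers summed to 617.1 against 604.5; 3 were measured (Apoc3, Ttr and Cyp2e1). Ttr, which encodes transthyretin, read higher at 282.3 against 141.3, a log2 ratio of 0.998 that is at the 2-fold threshold. Of 7 adipocyte markers on the array, Plin1, Cfd, Lipe and the brown fat gene Ucp1 (25.6 against 26.5) were under the floor. The 3 measured, Fabp4 (613.4 against 785.0), Cidea (418.5 against 531.6) and Lep (531.1 against 453.6), had a median log2 ratio of -0.35, with 0 past 2-fold in their brightest probe set, and the list summed to 1649.6 against 1824.7. Lep was read only by D49653_s_at, whose name ending is one given to probe sets that can match related transcripts. Its other probe sets, D45862_at (-319.7 against -467.6) and D45862_g_at (20.3 against -76.7), were under the floor. Smooth muscle, endothelial and skeletal muscle markers had 1 measured gene each, with log2 ratios of 0.27, -0.02 and -0.27, and summed to 460.1 against 376.0, 296.7 against 262.5 and 387.8 against 500.9.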

How the data were processed

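Heart RNA was transcribed in vitro into biotin-labelled cRNA and heat-fragmented, per the labels' protocols. The authors deposited 1 linear intensity per probe set and array, including values below 0; the software that made them is not given in the sources used here. Because the arrays' 2% trimmed means differed by 0.0030%, intensities were used as deposited, as the rule of under 10% allowed. Probe sets were named from a platform annotation of 2016 (7006 with 1 symbol, 308 with several, 1426 with none); symbols looked up by gene ID in a RefSeq table changed in 0 cases. Values were raised to the noise floor, log2 ratios were taken, and a gene was represented by its brightest probe set. The 2-fold threshold is a description: with 1 array per diet no test, SE or p-value was computed.

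The members, lists and settings were chosen with earlier results of these data known. Named genes were every member probe set, list genes past 2-fold, bright list genes, and the 5 genes nearest to Ech1 and to Eci1 in log2 ratio; Decr2, the PPAR genes, further dim genes and second probe sets were named after their values were seen. The ratio and scaling steps were tested on simulated arrays. Changes were planted there only in probe sets brighter on the low-salt array than Pxmp2 and the Decr1 probe set D00569_at. The simulation therefore does not cover ratios of probe sets as dim as these. Alternatives were 2 other floors, median, quantile and loess (span 0.4) scaling, 1.5-fold and 3-fold thresholds, 2 other rules for several probe sets, and the lists without the members. The tools were pandas 2.3.3 and numpy 2.4.6 on Python 3.11.15, with statsmodels 0.14.6, scipy 1.17.1 and matplotlib 3.10.9.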

Additional observations from a re-analysis of the deposited data

How the results depend on the processing

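All 6 measured member probe sets stayed at least 2-fold lower under median and quantile scaling and 5 under loess, where the Decr1 probe set D00569_at had a log2 ratio of -0.98; 4 did with the floor at 271.2, and 7 with the floor at 10.9, where the Eci1 probe set rc_AA799541_at enters with a bound of -1.96. Over the 5 floor and scaling alternatives, Ech1 ran from -1.91 to -1.82 and the brighter Eci1 probe set from -1.51 to -1.43. The floor at 271.2 moved the log2 ratios of Pxmp2 to -0.34 and of the Decr1 probe set D00569_at to -0.64, because their high-salt values then lie under the floor. At a 3-fold threshold 1 member probe set, that of Ech1, remained. With that higher floor, 1 gene of peroxisomal oxidation, 0 of peroxisome structure, 0 PPAR regulators and 2 of the mitochondrial cycle were at least 2-fold lower, and the last list's median was -0.57; with the floor at 10.9, 2 PPAR regulators were. Median scaling and loess each left 1 gene of peroxisomal oxidation at least 2-fold lower, since Abcd3 lies at the threshold. With a gene's probe sets summarised by their median or by the dimmest measured one, the median of peroxisomal oxidation was -0.94, and at the dimmest those of peroxisome structure and of unsaturated oxidation were -0.083 and -1.15. Without the 5 members, peroxisomal oxidation (median -0.41) held 1 gene at least 2-fold lower of 4 measured, and peroxisome structure 0 of 6. The list for unsaturated oxidation then had 0 measured genes, so it shows no direction. Of all genes measured, 23 were 2-fold lower and 43 higher, which became 251 and 252 with the floor at 10.9 and 9 and 24 at 271.2. No paired analysis was possible because each diet has 1 array. Noise below 126.4 limits what can be said of Ehhadh, Decr2 and the PPARs.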
